A study of Nematostella vectensis with 96 samples.

Results

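The difference between the first morning sample and the last night sample was examined in adult sea anemones, Nematostella vectensis, held under coloured light. It is called the step below, although the morning sample opened the sampling run and the night sample closed it. ZT, zeitgeber time, counts the hours since lights on, so ZT2 fell shortly after lights on and ZT22 late in the night. The comparison took every library of time point 1 (ZT2) and of time point 6 (ZT22) from the red, green and blue light:dark cycles, which gave 24 of the 96 libraries of the series, 12 at ZT2 and 12 at ZT22, with 4 per colour at each time. The same hours in constant darkness gave 7 further libraries, 4 at ZT2 and 3 at ZT22. The fourth dark ZT22 library held fewer than 10000 counts and was left out.

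Each library came from the whole body of 1 adult kept for a month in its light condition. The coloured cycles had light and dark phases of equal length. The dark animals were fed and handled without light, and all animals were starved before sampling. Sampling ran once through a single day in numbered order, so the hour and the place in the sampling order cannot be told apart. In the coloured cycles the hour and the presence of light also change together. The dark libraries are the only ones in which the hour changed without a change of light. There too the hour changed together with the sampling order. In every condition the night animals were taken after the morning animals. They may have gone longer without food, and the part of this in the results was not tested. A whole animal mixes all of its tissues, and more cells of a type and more RNA per cell cannot be told apart.

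Cnidarians have no brain, yet their behaviour and gene activity follow the day. Animal clocks are built on feedback between transcription factors: the bHLH-PAS proteins Clock and its partners switch on genes whose products later hold them back. Cryptochromes, which are relatives of the light-driven DNA repair enzyme photolyase, take part as repressors or as light receptors. PAR-bZIP proteins, the family of the vertebrate hepatic leukemia factor and of the fruit fly factor Pdp1, carry the rhythm to other genes. In the cnidarian clock model that the study adapts, they also act back on Clock or its partner Cycle. Light can also change transcription directly, apart from any clock.

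Total counts were 233951 to 626269 at ZT2 and 280593 to 706046 at ZT22 in the coloured cycles. In darkness they were 138366 to 537929 at ZT2 and 500282 to 512509 at ZT22. Levels are given below in CPM, counts scaled to a fixed library total, after TMM scaling, which corrects for library size and composition, and folds are log2 values of ZT2 over ZT22 from edgeR's quasi-likelihood fit ± SE. A gene was called at a Benjamini-Hochberg false discovery rate of 10%, over the 9552 genes that averaged at least 3 counts. Among pairs of libraries of the same group, the chi-square of the counts per degree of freedom was 3.86 to 21.2 with a median of 5.04, so no library was a copy of another. The dark ZT2 replicate A stood farthest apart (15.9 to 21.2), and the red ZT2 replicate B was next (10.7 to 14.1). Markers of the tissues a whole polyp should hold were present at both times. The summed level of 5 nematocyst proteins was 453 to 1120 CPM at ZT2 and 603 to 955 CPM at ZT22 in the coloured cycles, and that of 7 muscle genes was 2120 to 5160 CPM at ZT2 and 2930 to 4820 CPM at ZT22. No marker of nematocysts, neuropeptides, muscle or yolk was called, and 1 of 6 digestive gland markers was, as given below with the proteases. All 5 nematocyst markers had a positive fold (median 0.49), as did 4 of 7 muscle markers (median 0.04). The yolk markers NVE6616 and NVE6181 changed by -0.58 ± 0.20 and -0.87 ± 0.27 (edgeR adjusted p = 0.1655 and 0.115). The part of tissue make-up in the step was not tested.

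With lights on, 194 of the 9552 genes changed in the 3 colours together, which is 2.03% of those tested. Of these, 88 rose at ZT2 (0.921%) and the rest fell (1.11%). The risers of smallest p were transcription factors: PAR-bZIPa, the hairy-related repressor helt, PAR-bZIPd and a further bZIP gene, NVE5408. The strongest faller was a collagenase, an enzyme that cuts the collagen of the extracellular matrix, and a ubiquitin gene and a chitinase also fell. Of the 25 genes of smallest p, 11 were no longer called when every library was thinned to 100000 counts. The size of the change had a median of 0.90 among the genes that rose and 0.97 among those that fell, on the log2 scale. A change of at least 1 was fitted for 33 of the risers and 50 of the fallers. Without the 3 libraries least like their groups, a choice made after seeing the data, 271 genes were called.

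PAR-bZIPa (NVE14677), a member of the PAR-bZIP family, had the smallest p of all genes. In blue light it read 137.6, 254, 204 and 178 CPM at ZT2, against 57.4, 10.3, 56.6 and 30.2 CPM at ZT22. In green light it read 126.5, 92.9, 110.6 and 132.3 CPM at ZT2, against 29.8, 7.88, 12 and 26.1 CPM at ZT22. In red light it read 15.2, 33.5, 34.2 and 33.8 CPM at ZT2, against 8.47, 8.14, 9.61 and 10.8 CPM at ZT22. Within every colour all 4 morning libraries lay above all 4 night libraries, though the red mornings were lower than several blue nights. Over all genes, such separation was counted only for all 12 ZT2 against all 12 ZT22 coloured libraries, given below. No share over all genes is given for smaller groups or for 11 of 12 libraries. The leading genes were also picked by p on these same libraries, so such separation adds no support of its own. The fitted change was 2.28 ± 0.24 (edgeR adjusted p = 4.61e-06). In darkness the gene read 34.8, 23.3, 13.6 and 0 CPM at ZT2, against 12.9, 21.3 and 24.5 CPM at ZT22, with a fitted change of -0.30 ± 0.69. The dark groups overlapped.

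The gene helt (NVE8679) encodes a bHLH factor of the HES/HEY group, a family of transcriptional repressors. Its blue libraries read 129.3, 180, 210 and 175 CPM at ZT2, against 18.1, 20.5, 22.7 and 33.6 CPM at ZT22. Its green libraries read 72.8, 55.4, 104.5 and 106.97 CPM at ZT2, against 32.7, 14.4, 17.1 and 19.6 CPM at ZT22. Its red libraries read 15.2, 117.1, 39.3 and 23.5 CPM at ZT2, against 12.7, 17.9, 3.20 and 18.9 CPM at ZT22. Blue and green mornings stood clear of their nights, and the red groups overlapped. The change over the colours was 2.18 ± 0.28 (edgeR adjusted p = 7.99e-05). The dark libraries ran the other way, with 0, 25.2, 13.6 and 5.98 CPM at ZT2, against 35, 34.1 and 42.9 CPM at ZT22. That dark change of -1.42 ± 0.53 did not pass the test (edgeR adjusted p = 0.746).

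PAR-bZIPd (NVE8085), another PAR-bZIP gene, had high levels in blue light alone. Its blue libraries read 204, 561, 598 and 414 CPM at ZT2, against 33.2, 13.7, 11.3 and 10.1 CPM at ZT22. Its green libraries read 11.5, 16.3, 16.4 and 15.6 CPM at ZT2, against 0, 7.88, 1.71 and 2.18 CPM at ZT22. Its red libraries read 7.59, 0, 3.42 and 1.47 CPM at ZT2, against 0, 6.51, 0 and 0 CPM at ZT22. Blue and green mornings lay above their nights, and the red groups overlapped at a few reads each. The change over the colours was 3.54 ± 0.49 (edgeR adjusted p = 0.000203), and that in blue alone was 4.66 ± 0.53. In darkness there was 1 read in the 4 ZT2 libraries and 0 reads in the 3 ZT22 libraries, which allows a level of up to 1.98 CPM at ZT22 by counting error alone, so no dark fold is given.

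NVE5408, annotated as similar to PAR-bZIPa and to hepatic leukemia factor, followed the same order of colours. Its blue libraries read 588, 569, 621 and 666 CPM at ZT2, against 215, 51.4, 147 and 151 CPM at ZT22. Its green libraries read 282, 292, 225 and 274 CPM at ZT2, against 116.4, 51.2, 46.3 and 89.3 CPM at ZT22. Its red libraries read 74, 44.6, 134.97 and 94.1 CPM at ZT2, against 78.4, 52.1, 83.3 and 67.6 CPM at ZT22. Of the 3 colours only red had groups that overlapped. The change was 1.47 ± 0.25 over the colours (edgeR adjusted p = 0.00325), with 2.12 ± 0.35 in blue, 1.81 ± 0.34 in green and 0.36 ± 0.35 in red. The dark change was -0.29 ± 0.45, with 29.9 to 141.7 CPM at ZT2 and 100.1 to 156 CPM at ZT22.

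**Figure D1:**
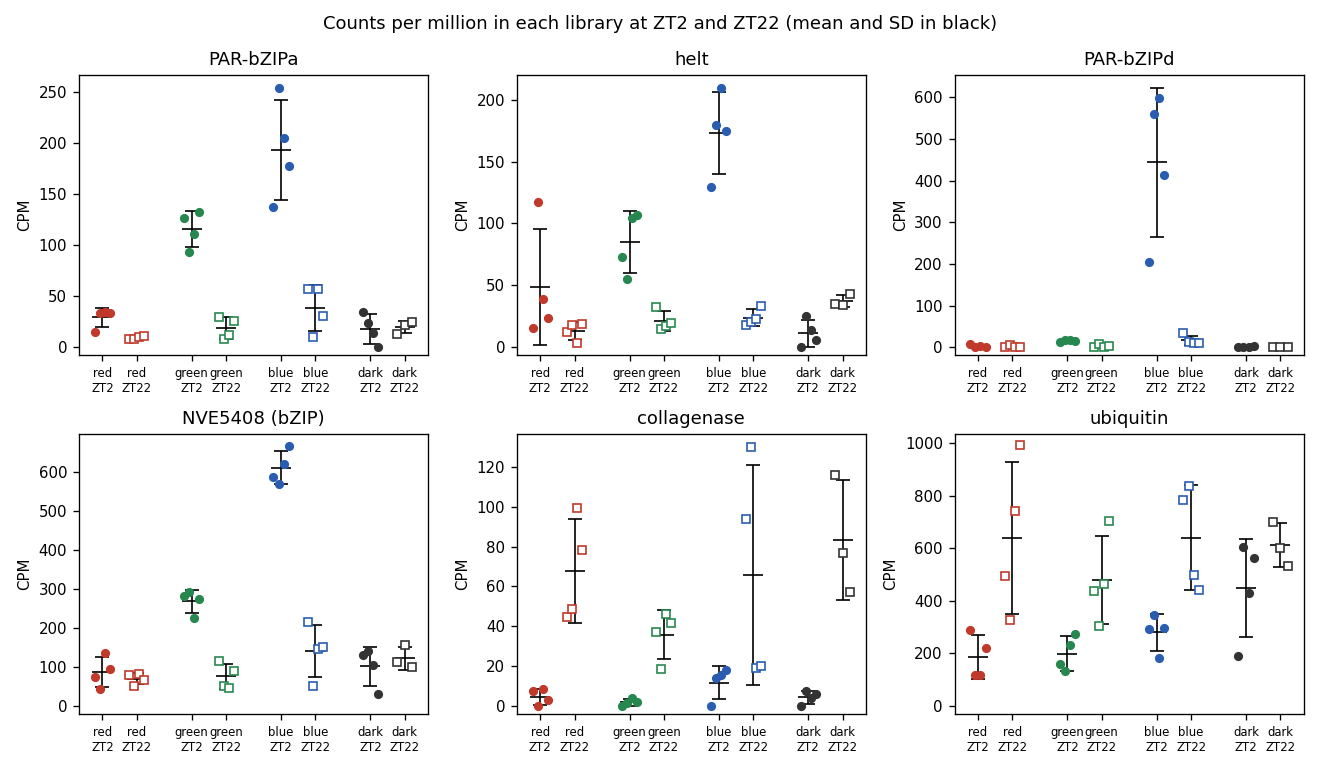
Level in CPM (vertical axis, linear) of 6 genes in each library at ZT2 (filled circles) and ZT22 (open squares), by light condition, with the mean and SD of the 3 or 4 libraries in black. PAR-bZIPa, helt, PAR-bZIPd and NVE5408 were highest at ZT2 in blue light, while collagenase was near 0 at ZT2 and high at ZT22 in darkness as well as in the 3 colours.

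Collagenase (NVE14551) fell the most, and it fell in darkness too. It read 0 to 18 CPM with a median of 3.52 at ZT2 and 18.4 to 130.1 CPM with a median of 45.4 at ZT22 in the coloured cycles. All 12 morning libraries lay below all 12 night libraries, which held for only 2 genes of those tested (0.0209%). The change was -3.17 ± 0.39 (edgeR adjusted p = 5.89e-05), with -3.53 ± 0.65 in red, -4.06 ± 0.76 in green and -2.36 ± 0.61 in blue. In darkness it read 0, 7.77, 3.90 and 5.98 CPM at ZT2, against 116.1, 76.8 and 57.2 CPM at ZT22. The dark change of -3.90 ± 0.49 was called on its own libraries (edgeR adjusted p = 0.0368). The coloured change minus the dark change was 0.75 ± 0.86 (edgeR adjusted p = 0.945), so a difference between them was not detected.

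The other gene without overlap, NVE11040, is annotated as autophagy related, autophagy being the digestion of a cell's own contents. It read 19.3 to 66.9 CPM with a median of 52.6 at ZT2 and 68 to 179 CPM with a median of 87.7 at ZT22. Its change was -0.94 ± 0.17 (edgeR adjusted p = 0.00642). In darkness it read 52.6 to 95.8 CPM at ZT2 and 55.5 to 79.2 CPM at ZT22, a change of 0.11 ± 0.33.

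A ubiquitin gene (NVE16955), whose product tags proteins for breakdown, read 117.1 to 348 CPM with a median of 227 at ZT2 and 303 to 992 CPM with a median of 497 at ZT22. Of the 12 morning libraries 11 lay below every night library, and the change was -1.41 ± 0.21 (edgeR adjusted p = 0.000564). The chitinase NVE11651, an enzyme that digests chitin, read 8.34 to 110.6 CPM with a median of 51.5 at ZT2 and 94.4 to 208 CPM with a median of 143 at ZT22. Its change was -1.37 ± 0.23 in the colours (edgeR adjusted p = 0.00325) and -1.05 ± 0.35 in darkness. Here too 11 of 12 mornings were below every night. A collagen gene (NVE1443), a matrix component, read 3.89 to 23.5 CPM at ZT2 and 15.2 to 64.2 CPM at ZT22, a change of -1.26 ± 0.24 (edgeR adjusted p = 0.00892). In darkness it averaged 10.8 CPM at ZT2 and 18.9 CPM at ZT22. The gene NVE11578, annotated as a ribosomal protein, read 247 to 558 CPM at ZT2 and 437 to 873 CPM at ZT22, a change of -0.84 ± 0.15 (edgeR adjusted p = 0.00617).

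The remaining fallers among the 25 genes of smallest p have no informative name. NVE13045 read 66.1 to 188 CPM at ZT2 and 140.5 to 354 CPM at ZT22, a change of -1.11 ± 0.15 (edgeR adjusted p = 0.000118). NVE12815 read 11.2 to 64.3 CPM at ZT2 and 50.8 to 97.1 CPM at ZT22, a change of -1.04 ± 0.16. The others, NVE16438, NVE16604, NVE12302, NVE710, NVE13396, NVE21843 and NVE14517, changed by -1.21 (NVE710) to -0.60 (NVE13396). All of these were called. Among fallers with a name, the pyridoxal-phosphate dependent enzyme NVE2343, chosen after its values were seen, changed by -2.30 ± 0.49 in the colours (edgeR adjusted p = 0.0189) and by -0.12 ± 0.62 in darkness, and its coloured groups overlapped.

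Besides the transcription factors, 6 risers stood among those 25 genes. NVE7601, subunit 3 of the CCR4-NOT complex that shortens the tails of mRNAs, read 365 to 561 CPM at ZT2 and 124.2 to 365 CPM at ZT22. Of its 12 morning libraries 11 lay above every night library, and it changed by 0.78 ± 0.13 (edgeR adjusted p = 0.00325). Its dark libraries averaged 636 CPM (SD 401) at ZT2 and 444.5 CPM at ZT22. NVE18293, a neural cell adhesion molecule 2, read 48.6 to 122.7 CPM at ZT2 and 16.2 to 54.8 CPM at ZT22, a change of 1.00 ± 0.18 (edgeR adjusted p = 0.00449). It changed by 0.02 ± 0.49 in darkness. NVE1748, an inhibitor of apoptosis, read 381 to 1580 CPM at ZT2 and 236 to 904 CPM at ZT22, a change of 0.89 ± 0.16 in the colours (edgeR adjusted p = 0.00623) and of 0.89 ± 0.45 in darkness. The dark libraries spread widely at ZT2, from 942 to 3171 CPM (SD 1046), against 729 to 977 CPM at ZT22. Cytochrome c oxidase NVE2183, part of the last complex of the respiratory chain, read 3183 to 7797 CPM at ZT2 and 1687 to 5010 CPM at ZT22, a change of 0.85 ± 0.15 (edgeR adjusted p = 0.00449). Its dark ZT2 replicate A read 17020 CPM, while the other 3 dark ZT2 libraries read 1543 to 1776 CPM. Among risers outside those 25, chosen after their values were seen, the amino acid transporter NVE17672 changed by 2.22 ± 0.47 and NVE448, the large subunit of the carbamoylphosphate synthase that feeds pyrimidine and arginine synthesis, by 2.04 ± 0.50. The genes NVE13761 and NVE7821, without an informative name, changed by 1.40 ± 0.25 and 1.45 ± 0.28. In darkness NVE13761 averaged 137.6 CPM at ZT2 and 55.2 CPM at ZT22, and NVE7821 averaged 2.66 and 2.69 CPM.

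The 14 genes of the clock and light list were not moved as one. All 14 were tested, 4 rose and none fell, against 0.921% and 1.11% of all genes, and their median change was 0.55, against -0.01 for all genes. The 4 that rose were PAR-bZIPa, PAR-bZIPd, helt and NVE5408. Most genes of this list were picked by the study for their behaviour in these same libraries or as known clock homologs, so their count is no independent evidence of direction.

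Among the core factors, Clock (NVE2080), the bHLH-PAS activator, read 2.05 to 30.9 CPM at ZT2 and 0 to 9.94 CPM at ZT22, a change of 1.03 ± 0.45 that missed the threshold (edgeR adjusted p = 0.302). Its relative NVE7690 read 13.4 to 46.7 CPM at ZT2 and 24.3 to 50.8 CPM at ZT22, a change of -0.05 ± 0.17. ARNT (NVE3976), a bHLH-PAS partner protein, changed by 0.60 ± 0.29 (edgeR adjusted p = 0.371). In darkness Clock had 3 reads at ZT2 and 9 at ZT22 in all.

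The cryptochromes differed in value from one another. Cry1a (NVE1138) read 5.69 to 55.2 CPM with a median of 27.2 at ZT2 and 0 to 30.2 CPM with a median of 9.38 at ZT22. Its change was 1.01 ± 0.34 over the colours and did not pass (edgeR adjusted p = 0.149), with DESeq2 giving an adjusted p of 0.053. Cry1b (NVE24214) read 14.3 to 41.2 CPM at ZT2 and 15.1 to 41.5 CPM at ZT22, a change of -0.04 ± 0.18. The difference between the 2 cryptochromes was not tested.

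The other regulators of the list were not called. Timeout (NVE19057), the timeless homolog, changed by 0.46 ± 0.24, and CK1δ/ε (NVE6915), the kinase that phosphorylates clock proteins in flies and mammals, by 0.07 ± 0.19. CiPC (NVE4116), named after a mammalian inhibitor of Clock, changed by 0.14 ± 0.23. PAR-bZIPb (NVE20636) read 27.9 to 112.6 CPM at ZT2 and 30.2 to 78.4 CPM at ZT22, a change of 0.50 ± 0.18 (edgeR adjusted p = 0.184).

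PAR-bZIPc (NVE8107) ran opposite to its relatives in blue light. It read 0, 0, 2.56 and 7.72 CPM at ZT2, against 12.1, 30.8, 30.2 and 20.2 CPM at ZT22 there. The blue change was -2.90 ± 0.64 (edgeR adjusted p = 0.142), beside -0.85 ± 0.46 in green and 0.22 ± 0.50 in red. Over the colours the change of -0.92 ± 0.36 was not called (edgeR adjusted p = 0.232). So within 1 gene family PAR-bZIPa and PAR-bZIPd rose at ZT2, while PAR-bZIPb and PAR-bZIPc did not pass the test.

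**Figure D2:**
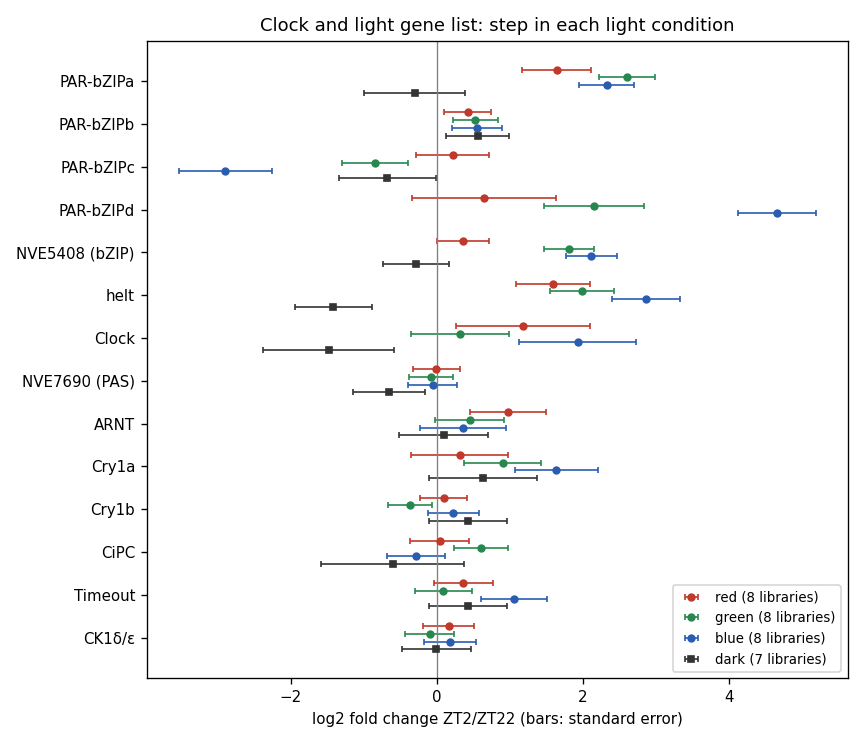
Log2 fold change of ZT2 over ZT22 (horizontal axis, bars are standard errors) for the 14 genes of the clock and light list in red, green, blue and darkness. PAR-bZIPa, NVE5408 and helt lie right of 0 in the 3 colours and left of 0 in darkness, and PAR-bZIPc in blue lies at -2.90. The dark point of PAR-bZIPd, which rests on 1 read, is not drawn.

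The other gene groups are read against all genes, of which 0.921% rose and 1.11% fell, with a median of -0.01. Most of their members are genes that the study called in these same libraries. A larger share of calls than among all genes was thus built into the lists. Of 17 proteases, cathepsins included, 4 fell and none rose, with a median of -0.32: collagenase, the carboxypeptidase NVE13249 (-1.04 ± 0.25), the elastase-like NVE16548 (-1.04 ± 0.26) and a cathepsin Z, NVE4490 (-0.75 ± 0.19). The carboxypeptidase read 41.7 to 245 CPM at ZT2 and 124.7 to 387 CPM at ZT22. In darkness it changed by -0.23 ± 0.36, the elastase-like gene by -0.82 ± 0.56 and the cathepsin Z by 0.23 ± 0.30, none of them called. The elastase-like gene, which is also the called digestive gland marker, read 30.7 to 184 CPM at ZT2 and 61.9 to 272 CPM at ZT22, while the trypsins NVE16978 and NVE25777 changed by 0.14 ± 0.20 and 0.00 ± 0.13. The summed level of the 6 digestive gland markers was 6630 to 20000 CPM at ZT2 and 5230 to 11300 CPM at ZT22. It overlapped between the times, and its part in the protease result was not tested.

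Among chaperones, which fold and refold proteins, 1 of 17 rose and none fell, against 0.921% and 1.11% of all genes. This was HSP70C (NVE11918), with 58.3 to 145 CPM at ZT2 and 24.3 to 86.8 CPM at ZT22, a change of 0.79 ± 0.17 (edgeR adjusted p = 0.0188). Its dark change of 0.59 ± 0.40 was not called. The other HSP70 genes were not called, and HSP70D (NVE20412) had a value of -0.27 ± 0.14. The median of the list was 0.20.

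Of 14 antioxidant and stress genes, 1 rose and 1 fell, against 0.921% and 1.11% of all genes, with a median of 0.06. Cytoglobin (NVE17053), a haem protein that binds oxygen, rose by 0.93 ± 0.22, with 98.6 to 424 CPM at ZT2 and 46 to 126.9 CPM at ZT22. Its dark change was of similar size, 0.97 ± 0.39, and was not called. Copper/zinc superoxide dismutase (NVE17376), which removes superoxide, changed by -0.96 ± 0.28, with 0 to 38.6 CPM at ZT2 and 27.7 to 85.6 CPM at ZT22. Its call was just under the threshold (edgeR adjusted p = 0.0997), and its dark change was -0.48 ± 0.39. Catalase (NVE22156), which breaks down hydrogen peroxide, had a value of 0.08 ± 0.11.

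Of 4 histone genes, the proteins that package DNA, only an H2A (NVE11853) rose, with 25 to 202 CPM at ZT2 and 9.06 to 92.3 CPM at ZT22, a change of 1.67 ± 0.38 (edgeR adjusted p = 0.0265), where 0.921% of all genes rose. The dark change of this H2A was 1.27 ± 0.58 and was not called. Histone H1 (NVE4301) read 0 to 1188 CPM at ZT2 and 0 to 357 CPM at ZT22, a spread far wider than its change of 1.01 ± 1.14. In darkness H1 read 8.71 to 524 CPM at ZT2 and 0 in all 3 libraries at ZT22.

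The large housekeeping groups had medians near 0. Their counts again stand beside the 0.921% of all genes that rose and the 1.11% that fell. Of 37 ribosomal protein genes 2 rose and 1 fell (median -0.03). The risers were NVE7184 (0.53 ± 0.13) and NVE23054 (0.42 ± 0.12), and the faller was NVE11578, described above. In darkness NVE7184 changed by 0.84 ± 0.33, NVE23054 by -0.08 ± 0.32 and NVE11578 by -0.22 ± 0.38, none of them called. Of 35 genes of mitochondrial respiration 1 rose and none fell (median -0.01). The 17 splicing genes had a median of 0.19 and a smallest edgeR adjusted p of 0.344, so none was called. Of 9 tubulins 1 rose, the alpha tubulin NVE2702 (0.74 ± 0.17), with a list median of 0.22. The dark change of NVE2702 was 0.58 ± 0.34 and was not called. Of 11 CREB and bZIP factors 3 rose, all of them already described in the clock list, and the CREB and C/EBP members had values of -0.41 to 0.14. Most annotations of these lists cover only genes that the study called in these libraries, so each list is a part of its pathway. The counts of calls in these lists are therefore no independent evidence.

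The 3 colours were then taken one at a time. In blue light 7 genes were called (0.0733%), 6 higher and 1 lower, in green 5 (0.0523%), 2 higher and 3 lower, and in red 0 (0%). At an unadjusted p under 0.05 there were 611 genes in blue, 660 in green and 652 in red. DESeq2 called 33 in blue, 36 in green and 47 in red. The leading blue genes were PAR-bZIPd, helt, NVE5408 and PAR-bZIPa, with NVE24122 after them. NVE24122 has no name in the study, and its blue change was 1.31 ± 0.27, beside 0.33 ± 0.23 in green and 0.00 ± 0.25 in red. The green genes were PAR-bZIPa (2.6 ± 0.38), NVE14592, NVE5408, collagenase and NVE12815.

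NVE14592, a gene with no name in the study, had its highest ZT2 and ZT22 levels in 3 of the 4 green ZT22 libraries. Single green libraries of ZT14 and ZT18 reached 500.1 and 369 CPM. Its green libraries read 67.1, 42.4, 67.6 and 37.0 CPM at ZT2, against 86.6, 336, 316 and 224 CPM at ZT22. Its red and blue libraries read 50.2 to 96.7 CPM at ZT2 and 53.7 to 130.1 CPM at ZT22. The green change was -2.18 ± 0.34 (edgeR adjusted p = 0.00653), and it was -0.24 ± 0.34 in red and -0.31 ± 0.35 in blue.

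A test of whether the step differed among colours called 0 genes (0%), with 267 at an unadjusted p under 0.05, and DESeq2's likelihood ratio test also called 0. The unadjusted p was 0.00603 for PAR-bZIPd, 0.00337 for NVE5408, 0.00357 for PAR-bZIPc and 0.000527 for NVE14592, each with an adjusted p near 1 (edgeR). The values of the colours given above therefore stand side by side, and no difference among them passed the test.

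In darkness, where there were fewer libraries, the same fit called 3 genes (0.0314%), 1 higher and 2 lower, while 605 had an unadjusted p under 0.05 and DESeq2 called 21. The dark count depended on the filter. With no filter on counts it was 290, above the 166 of the colours under that setting, and with a mean of at least 10 counts it was 0, against 223 in the colours. Besides collagenase these were NVE24829 and NVE8644, which have no name in the study. NVE24829 read 8.71, 1.94, 0 and 2.99 CPM at ZT2, against 38.7, 64 and 55.2 CPM at ZT22, a change of -4.46 ± 0.63 (edgeR adjusted p = 0.0519). NVE8644 read 130.7, 167, 228 and 110.7 CPM at ZT2, against 14.7, 25.6 and 26.6 CPM at ZT22, a change of 2.84 ± 0.41 (edgeR adjusted p = 0.0519). In the colours these 2 genes had values of -0.22 ± 0.83 and 0.02 ± 0.29. Of the single dark libraries left out, only ZT2 replicate B took the dark call from collagenase. The count of 3 became 0 without the dark ZT2 replicate B and 6 without the dark ZT2 replicate C.

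Most of the 194 genes called in the colours had smaller dark changes, in libraries that the call did not use. The coloured change was larger than the dark change for 72 of the 88 risers and for 93 fallers. Collagenase was among the genes for which it was not. Of the 88 that rose, 61 had a positive and 27 a negative dark change, with a median of 0.33. Of those that fell, 82 had a negative and 24 a positive dark change, with a median of -0.39. Of all genes, 47.8% had a positive dark change, with a median of -0.03. Leaving out each dark library in turn gave 53 to 64 risers with a positive and 70 to 83 fallers with a negative dark change. Without the dark ZT2 replicate A, the library that stood apart, these were 53 and 70. The members thus kept some of their direction without light, at smaller medians than the 0.90 and -0.97 of the colours, on which they were chosen.

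**Figure D3:**
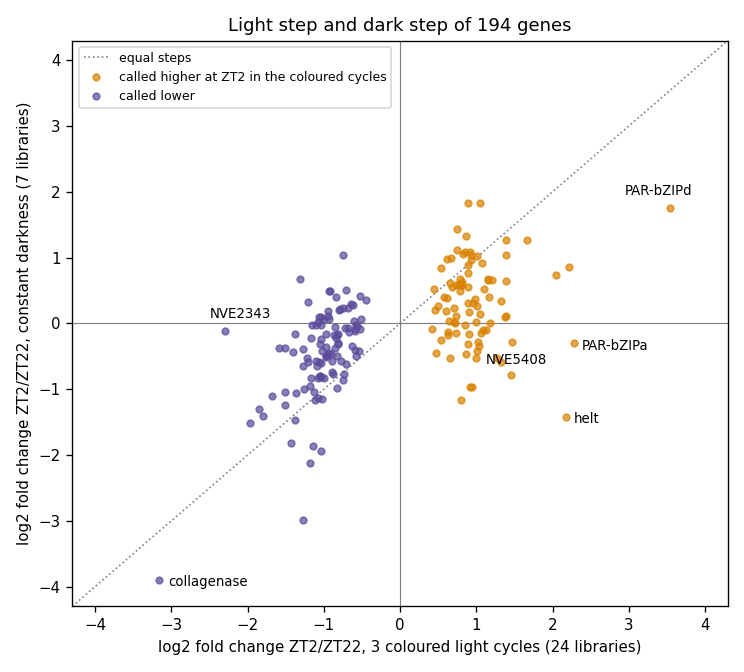
Log2 fold change of ZT2 over ZT22 in the 3 coloured cycles (horizontal axis) and in darkness (vertical axis) for the 194 genes called in the colours, 88 of them higher (orange) and the others lower (purple). The dotted line marks equal changes; collagenase lies close to it, while helt, PAR-bZIPa and NVE5408 lie below 0 on the dark axis, and the dark value of PAR-bZIPd rests on 1 read.

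The change in the colours minus that in darkness was tested in 1 fit over the 31 libraries. It called 2 genes (0.0209%), 1 in each direction, while 579 had an unadjusted p under 0.05 and DESeq2 called 11. One was helt, at 3.60 ± 0.62 (edgeR adjusted p = 0.0220). It kept the call without each of the libraries in turn, and lost it when every library was thinned to 100000 counts. The other was NVE863, a gene with no name in the study, at -3.00 ± 0.55 (edgeR adjusted p = 0.0280). NVE863 read 5.58 to 18 CPM at ZT2 and 6.86 to 32 CPM at ZT22 in the colours. In darkness it read 17.4, 19.4, 17.5 and 15 CPM at ZT2, against 1.84, 2.13 and 4.09 CPM at ZT22. The dark ZT22 libraries held 4 reads of it in all, and the call was lost without the dark ZT2 replicate B (edgeR adjusted p = 0.210), the dark ZT22 replicate A (0.289) or the dark ZT22 replicate B (0.294).

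For PAR-bZIPa the difference was 2.61 ± 0.64 and for NVE5408 it was 1.78 ± 0.53, neither past the threshold (edgeR adjusted p = 0.259 and 0.463). The ubiquitin gene NVE16955 had a difference of -0.95 ± 0.44 (edgeR adjusted p = 0.814). Of the 194 genes only helt passed this test, which rests on 7 dark libraries.

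A direct comparison of the colours with darkness was made at each time. These comparisons use the same coloured libraries as the step, so they add no independent support. At ZT2, 260 genes differed (2.72%), of which 187 were higher (1.96%) and 73 lower (0.764%) in coloured light than in darkness. At ZT22, when all animals were in the dark, 0 differed (0%), while 605 had an unadjusted p under 0.05 and DESeq2 called 5. There were 4 dark libraries at ZT2 and 3 at ZT22, and the difference between these counts was not tested. The count at ZT2 hung on single libraries. It was 44 without the dark ZT2 replicate C, 88 higher and 28 lower without the dark ZT2 replicate D and 162 without the green ZT2 replicate C, and it was 315 without the dark ZT2 replicate A that stood apart.

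PAR-bZIPa was 2.47 ± 0.45 higher in the colours than in darkness at ZT2 (log2, edgeR adjusted p = 0.0140) and differed by -0.05 ± 0.42 at ZT22. For helt the values were 2.61 ± 0.46 at ZT2 (edgeR adjusted p = 0.0140) and -0.96 ± 0.41 at ZT22 (edgeR adjusted p = 0.768). The gene NVE3113, without an informative name, read 1444 to 2844 CPM in the colours and 758 to 1089 CPM in darkness at ZT2, a difference of 1.11 ± 0.20. NVE7821 read 7.72 to 33.5 CPM in the colours and 0 to 8.71 CPM in darkness at ZT2, where the dark libraries held 2 reads in all. CiPC, which showed no called step, was also higher in the colours at ZT2, by 2.52 ± 0.54 (edgeR adjusted p = 0.0230), with 15.2 to 41.2 CPM in the colours and 0 to 5.85 CPM in darkness. At ZT22 its difference was 1.80 ± 0.52 (edgeR adjusted p = 0.704). In the clock and light list 6 of 14 genes were higher in the colours than in darkness at ZT2 and none lower, against 1.96% and 0.764% of all genes. The list was picked as described above, so this count is no independent evidence either.

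The tissue markers were also compared between the colours and darkness at ZT2. The summed nematocyst markers were 453 to 1120 CPM (median 837) in the colours and 1070 to 1250 CPM (median 1110) in darkness. The summed muscle markers were 2120 to 5160 CPM (median 3830) in the colours and 2620 to 3250 CPM (median 3100) in darkness. The ranges overlapped in both sums, but the medians differed in opposite directions. The median log2 value of colours over darkness was -0.605 for the nematocyst and 0.446 for the muscle markers. None of the 5 nematocyst, 6 digestive gland and 2 neuropeptide markers was called, 1 of 7 muscle markers was higher in the colours and 1 of 2 yolk markers lower, against 1.96% and 0.764% of all genes. The part of the markers in the 260 calls was not tested.

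The other 4 sampling times show where the step sits in the day. PAR-bZIPa in blue averaged 193 CPM at ZT2, 145 at ZT6 and 90.3 at ZT10 in the light, then 18.2 at ZT14, 10.8 at ZT18 and 38.6 at ZT22 in the dark phase. In green it averaged 115.6, 106.9 and 44.8 CPM at the 3 light times and 20.3, 27.1 and 19.0 CPM at the 3 dark times. In red it averaged 29.2, 45.4 and 14.9 CPM at the light times and 11.4, 9.16 and 9.26 CPM at the dark times. Its mean was thus highest at ZT2 in blue and green and at ZT6 in red. In constant darkness its 6 means lay between 2.40 and 19.6 CPM. NVE5408 in blue averaged 611, 422 and 291 CPM at the light times and 107.3, 98.9 and 141.1 CPM at the dark times. In red NVE5408 held between 70.3 and 92.9 CPM at all 6 times.

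PAR-bZIPc took the opposite course, with blue means of 2.57 CPM at ZT2, 6.09 at ZT6, 13.2 at ZT10, 47.1 at ZT14, 92.9 at ZT18 and 23.3 at ZT22. Its highest blue mean was thus at ZT18, a time outside the step. Collagenase was low until ZT14 in all conditions. Over the colours it averaged 6.16, 4.90, 5.22 and 5.46 CPM at ZT2, ZT6, ZT10 and ZT14, then 51.4 at ZT18 and 56.4 at ZT22. In constant darkness it averaged 4.41, 6.71, 4.96 and 5.42 CPM at the first 4 times, then 33.8 at ZT18 and 83.4 at ZT22. The ubiquitin gene had means over the colours of 222, 295, 369, 373, 497 and 586 CPM in the order of the 6 times. That order is also the order of sampling. Of the single colours only red had a higher mean at each later time. Blue averaged 280.0 CPM at ZT2 and 203 CPM at ZT6, then 293 CPM at ZT10 and 286 CPM at ZT14. Green averaged 474 CPM at ZT10 and 398 CPM at ZT14, then 580 CPM at ZT18 and 478 CPM at ZT22.

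**Figure D4:**
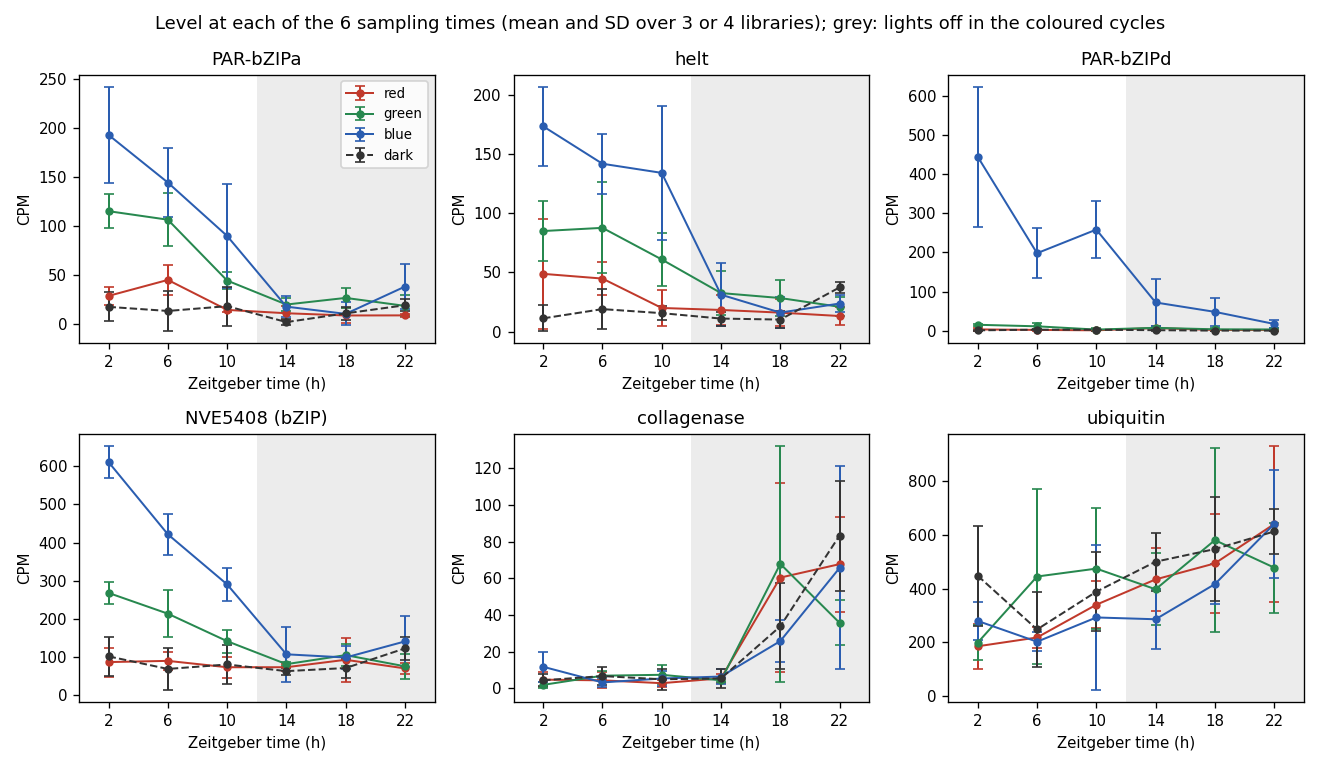
Mean level in CPM (vertical axis, linear) at the 6 sampling times (horizontal axis, zeitgeber hours) in red, green, blue and constant darkness, with the SD over 3 or 4 libraries as bars; grey marks lights off in the coloured cycles. PAR-bZIPa, helt, PAR-bZIPd and NVE5408 are highest in blue in the light phase, whereas collagenase is high only at ZT18 and ZT22, in darkness as well.

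The 194 genes were also followed in coloured libraries that the call did not use. Between ZT6, the next sample of the day, and ZT18, the sample before the last of the night, 74 of the 88 risers were higher at ZT6, with a median of 0.38, and 98 fallers were lower and 8 higher at ZT6, with a median of -0.55. For all genes the median was 0.0011 and 50.1% were higher at ZT6. Between ZT10 and ZT14, on both sides of lights off, 57 risers were higher and 65 fallers lower at the light time, with medians of 0.13 and -0.05. In darkness the same 2 pairs of hours gave risers a median of 0.12 between ZT6 and ZT18 and 0.18 between ZT10 and ZT14, and fallers -0.39 and -0.21. In the colours the changes of these genes were thus largest between ZT2 and ZT22, where they were chosen, smaller between ZT6 and ZT18, and near 0 across lights off.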

How the data were processed

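Whole-body RNA of 1 animal per library was made into 3′ tag libraries. As the study describes, the authors trimmed the reads, removed PCR duplicates and mapped them with Bowtie2 (version not given in the sources used here) to a transcriptome of the species, keeping reads that hit a single gene. The deposited values are raw counts per gene, and gene copies whose reads hit several genes are undercounted. Columns were matched to samples by the names in the labels, and hours were taken from the study's methods.

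From the counts, TMM scaling and quasi-likelihood tests were run in edgeR 4.0.16 (R 4.3.3), with light colour as a covariate in the comparison of ZT2 with ZT22, over 9552 of 23927 genes with a mean of at least 3 counts in libraries of at least 10000 counts. Benjamini-Hochberg adjustment was over all genes tested, at 10%. Errors are standard errors derived from the F statistic, and intervals and limits cover counting error only. Animals were the replicates, all from 1 experiment. The fits were tested on simulated data. DESeq2 1.42.0, RLE scaling, other filters, thinning, the replicate block and leaving out libraries were alternatives.

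Genes named are the 25 of smallest p in the coloured comparison, every clock and light gene, up to 5 of smallest p in each other comparison and the members of lists that were called. The members and lists were chosen with earlier results of these data known. Gene names follow the study. No sequences or coordinates are given, since no reference table used here pairs these gene identifiers with them.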

Additional observations from a re-analysis of the deposited data

Results flagged for a closer look

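Both genes whose step differed between coloured light and darkness were put up for a closer look, helt (edgeR adjusted p = 0.0220) and NVE863 (edgeR adjusted p = 0.0280). In addition, 26 of 287 groups of 4 libraries among the named genes (9.06%) held 1 library whose gap to the next was a large share of the group's range. The rule was set for about 5%, which need not hold for counts near 0 or for picked genes in shared libraries. An excess is therefore not claimed.

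For the bZIP genes, these were the red ZT2 replicate A for PAR-bZIPa (15.2 CPM, others 33.5 to 34.2). PAR-bZIPd had 4, namely the green ZT2 replicate A (11.5 CPM, others 15.6 to 16.4), the red ZT22 replicate B (6.51 CPM), the blue ZT22 replicate A (33.2 CPM, others 10.1 to 13.7) and the dark ZT2 replicate D (2.99 CPM). PAR-bZIPb had 3, at 112.6 CPM in the blue ZT2 replicate A, 78.4 CPM in the red ZT22 replicate D and 30.2 CPM in the green ZT22 replicate B.

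The red ZT2 replicate B was high by this rule for 3 genes, with 122.7 CPM of NVE18293, 27.9 CPM of Cry1a and 156 CPM of CK1δ/ε (others 39.3 to 55.9). That library also held the highest coloured ZT2 level of several called genes, among them HSP70C, cytoglobin, NVE2183 and alpha tubulin NVE2702. In blue at ZT2, replicate B read 652 CPM of NVE13761 and 8.29 CPM of NVE863, replicate C read 25.6 CPM of NVE7821, and replicate D read 41.2 CPM of Cry1b. In green at ZT2, replicate D read 52.5 CPM of NVE13396.

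In darkness at ZT2, replicate A read 17020 CPM of cytochrome c oxidase NVE2183, and replicate D read 80.8 CPM of NVE12302 and 18 CPM of NVE21843. At ZT22, the green replicate B was low for NVE16604 (63 CPM) and NVE21843 (19.7 CPM). The green ZT22 replicate D was high for NVE24829 (37 CPM) and NVE8644 (176 CPM), the blue replicate B for NVE24829 (116.4 CPM), and the red replicate C for collagen NVE1443 (35.3 CPM) and NVE710 (96.1 CPM).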

How the results depend on the processing

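The calls of the coloured step became 365 with DESeq2 (190 of them shared) and 41 with every library thinned to 100000 counts, and stayed at 166 to 223 under the other planned settings. Leaving out 1 library at a time kept them within 1.5 times, with 243 at most. The dark step gave 21 calls with DESeq2, 290 with no filter on counts, 0 with a mean of at least 10, 9 when thinned, and 0 to 6 with 1 library left out. The light minus dark difference gave 11 with DESeq2, 1 with no filter, 1 with a mean of at least 10, 1 in 1 fit over all libraries, 0 when thinned, and 1 to 3 with 1 library left out. Red gave 47 with DESeq2, 4 with no filter, 4 with a mean of at least 10, 3 in 1 fit, and 0 to 6 with 1 left out. Green gave 36 with DESeq2, 3 when thinned and 2 to 21 with 1 left out. Blue gave 33 with DESeq2, 4 in 1 fit, 2 when thinned and 4 to 9 with 1 left out. The test among colours gave 0 to 1 with 1 left out. Colours against darkness at ZT2 gave 62 with no filter, 13 when thinned and 44 to 354 with 1 left out, and at ZT22 gave 5 with DESeq2 and 0 with each library left out. The cause of these shifts was not tested.

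The replicate block gave 180 calls for the coloured step, 3 for green and 4 for darkness, where none of the 3 calls was kept. Same-letter libraries correlated from -0.223 to 0.317 in their deviations, above 0.1 in 4 of 15 pairs and best with their own letter in 5, so the letters share only a name.

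Each of the 25 leading genes kept its call without any 1 of the 24 libraries, but 13 lost it under 1 other setting each. When thinned, 11 did (edgeR adjusted p of 0.133 to 0.920): NVE12815, NVE16438, NVE16604, NVE12302, NVE18293, NVE11040, NVE1443, NVE7821, NVE710, NVE13396 and NVE21843. In 1 fit over all libraries, NVE2183 (0.126) and NVE14517 (0.123) did. Some uncalled clock genes gained a call under other settings, counting each library left out as a setting. Cry1a did so in 1 of 31, PAR-bZIPc in 1 of 31 and PAR-bZIPb in 2 of 32. Among the genes named, signs turned only for uncalled ones: when thinned, Cry1b (0.27), CiPC (-0.13), NVE7690 (0.26) and NVE8644 (-0.30). With 1 library left out, Cry1b ranged from -0.12 to 0.033, NVE7690 from -0.10 to 0.044, CK1δ/ε from -0.093 to 0.135, NVE24829 from -0.85 to 0.90 and NVE8644 from -0.125 to 0.157.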
